A study of Schizophyllum commune with 14 samples.

Results

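The expanded fruiting body of the split gill mushroom Schizophyllum commune was set against the closed primordium that precedes it, called stage 2. All 5 libraries of these stages entered the comparison, out of 14 in the series: fruiting body replicates 1, 2 and 3 and stage 2 primordium replicates 2 and 3, chosen by their labels. Every culture was a dikaryon (a mycelium with both parental nuclei in each cell) of strain H4-8, formed from the monokaryons H4-8a and H4-8b on MM medium. Plugs of 5 mm grew for 5 days at 30 °C in darkness and for 10 days at 25 °C, upside down, with light for 12 hours a day. Stage 2 primordia stood 3 to 4 mm high with a pit at the tip, and fruiting bodies were fully expanded. Both stages were wild-type tissue with no treatment between them. Poly(A) RNA was sequenced, all 5 libraries were read on the same flow cell, and each held 15694621 to 24052213 unique reads (reads with a single placement on the transcript models).

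As a primordium of this fungus opens, its pit widens into a cup whose floor folds into split gills, on which basidia form the sexual spores. Hydrophobins, small secreted proteins that coat hyphae and line air spaces, are abundant in fruiting tissue. A set of zinc finger, homeodomain and ARID/BRIGHT regulators together with the White collar blue light sensor governs when primordia form and grow.

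The stage 2 libraries were unlike each other, which bears on every value here. On a map of the 11 fruiting libraries (stage 1 and 2 primordium, young fruiting body and fruiting body), the second principal component, with 22.5% of the variance, ran from -101 in stage 2 replicate 2 to 58.4 in fruiting body replicate 1. Stage 2 replicate 3 was at -9.38, and the other fruiting bodies were at 45.8 and 49.1. On the first component, with 46.3%, fruiting body replicate 1 (68.3) lay between stage 2 replicates 3 and 2 (51.4 and 89.3), while the other fruiting bodies were at 13.2 and 15.7. Replicate 2 had a TMM factor of 0.565 (a scaling for libraries in which a few genes take many reads), against 0.934 in replicate 3 and 1.09 to 1.17 in the fruiting bodies. It held 19 models at 10000 CPM or more (unique reads relative to the TMM-scaled library total), where replicate 3 held 6 and the fruiting bodies 2 to 5. The low TMM factor raises CPM in replicate 2 and so raises this count. Of its unscaled unique reads, the 50 most abundant models took 31.5%, against 27.3% in replicate 3 and 18.5% to 23.1% in the fruiting bodies. The most abundant model alone took 2.96% in replicate 2 and 3.71% in replicate 3. Models shorter than 500 bases took 8.00% of the reads of replicate 2, against 5.91% in replicate 3 and 4.25% to 5.82% in the fruiting bodies. The part of these differences in the results was not tested.

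**Figure D1:**
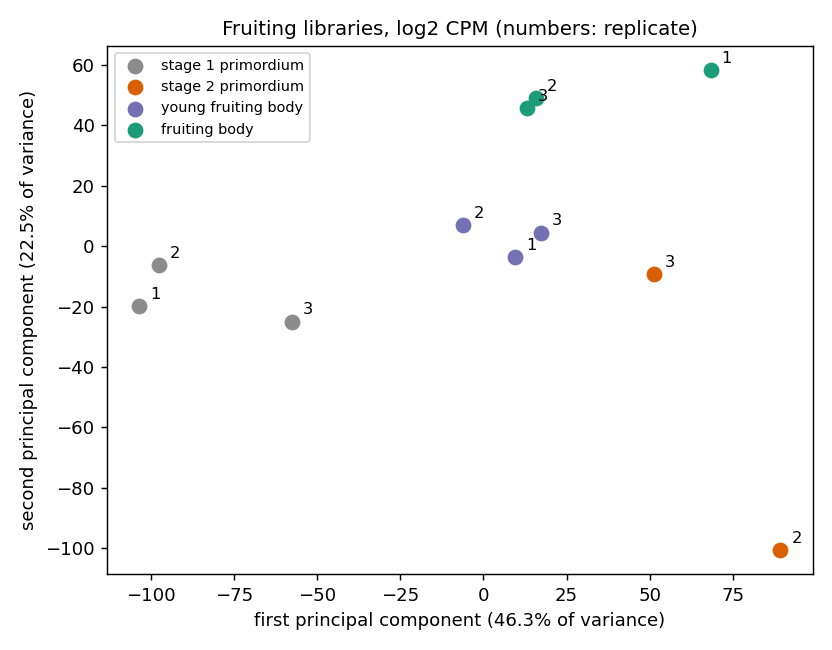
Principal components of log2 CPM for the 11 fruiting libraries, with 1 point per library, coloured by stage and numbered by replicate; axes give component scores. The 3 fruiting bodies lie at 45.8 to 58.4 on the vertical axis and stage 2 replicates 3 and 2 at -9.38 and -101.

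With both stage 2 libraries, 1682 of 14132 genes tested were called (11.9%), 612 higher in the fruiting body (4.33%) and 1070 lower (7.57%). A call is a Benjamini-Hochberg adjusted p below 0.05 in edgeR's two-sided quasi-likelihood test, fitted over the 11 fruiting libraries so that the other stages help to estimate the spread. Of the calls 111 rises and 265 falls were of at least 4-fold. In tissue RNA of this kind, fewer cells of a type and less RNA per cell cannot be told apart. The genes that fell had a median level of 126 CPM in the primordium and 41.8 CPM in the fruiting body, whereas those that rose had medians of 6.11 and 16.9 CPM. These medians depend on how the genes were chosen and have no value over all genes beside them. All 3 fruiting body libraries lay on the called side of both stage 2 libraries in 612 of 612 rises and in 1043 of 1070 falls. Over all genes tested, 25.8% had every fruiting body library above both stage 2 libraries and 20.7% had every one below, or 46.6% in either direction. The calls were made on these same values, so the higher shares among them are largely built in.

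The number of calls depended on single libraries, some of them outside the comparison. It was 839 without stage 1 replicate 1 and 1964 without young fruiting body replicate 2. Whether a particular library or the smaller number of libraries matters was not tested. With stage 2 replicate 2 left out edgeR made 0 calls (2042 genes had an unadjusted p below 0.05), DESeq2 called 153 and sample-weighted voom 160. Without fruiting body replicate 2 or 3 edgeR also called 0, with 3870 and 4030 genes at an unadjusted p below 0.05. Without stage 2 replicate 3 it called 3444. Fitted on the 5 libraries alone it called 0 as well (3684 at an unadjusted p below 0.05). The direction that prevailed differed with scaling. Rises made up 36.4% of calls under TMM and 87.6% of 2347 calls when libraries were scaled by their totals alone. The median log2 change over all genes was 0.10 in the former case and 0.69 in the latter. RLE and TMM with singleton pairing, scalings of the same kind as TMM, gave 32.9% and 29.4% rises. With TMM kept, the share still ran from 18.7% with sample-weighted voom to 48.0% over all 14 libraries.

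**Figure D2:**
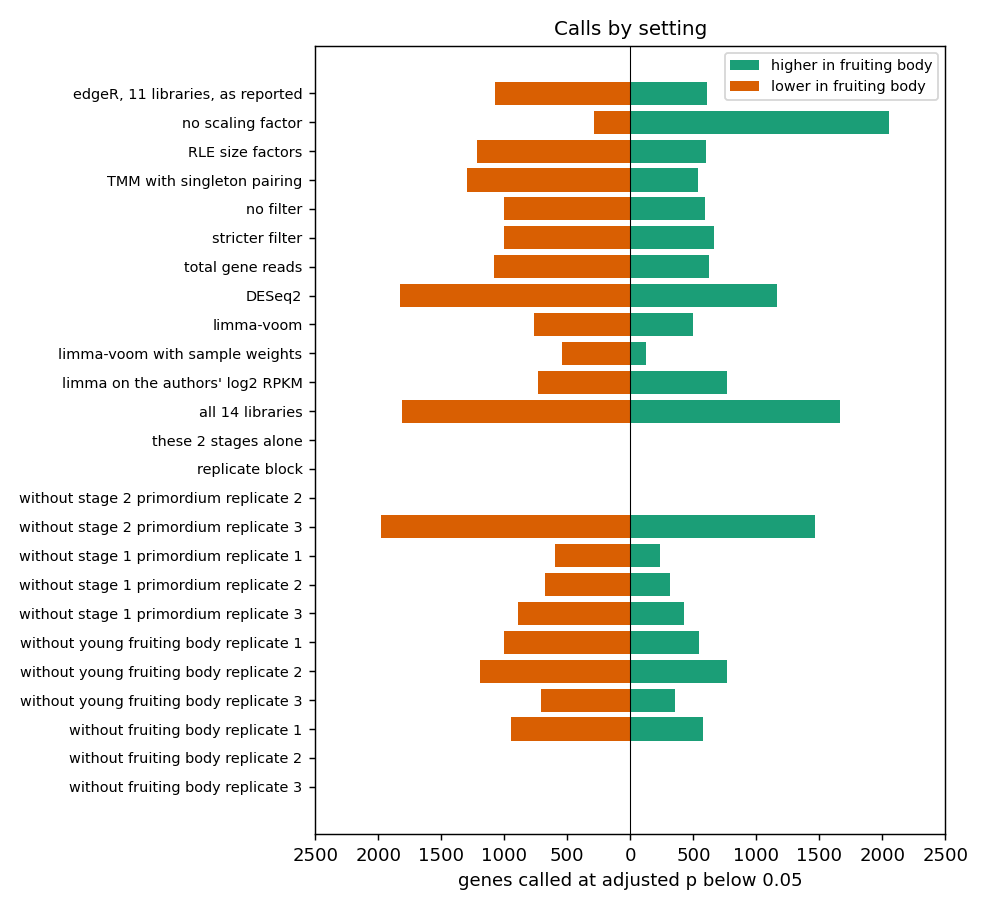
Number of genes called at an adjusted p below 0.05 under each setting (horizontal axis, higher in fruiting body to the right and lower to the left). The 1682 calls of the fit as reported become 0 without stage 2 replicate 2, without fruiting body replicate 2 or 3, with the 2 stages alone and with a replicate block.

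Each gene's change was then taken against a single stage 2 library at a time. By the adjusted threshold 0 of the 1682 calls held against each library in edgeR, since none was called against replicate 3 alone. By size and position, 945 genes did (56.2% of the calls): the 3 fruiting bodies lay beyond both primordia and the log2 change was at least 1, which is 2-fold, against each. They were 460 rises (3.26% of genes tested) and 485 falls (3.43%), and 70 and 43 of them were at least 4-fold from each. Rises held more often by this measure than falls, 75.2% against 45.3%, but the gap depended on the setting. With the authors' log2 RPKM it nearly closed, as 492 of 767 rises and 453 of 730 falls held. With DESeq2 it remained, at 601 of 1164 rises and 665 of 1826 falls. The rule was chosen after the values were seen and is a description. Called changes were larger against replicate 2 in 533 of 612 rises and 986 of 1070 falls. The median rise was 1.92 on the log2 scale against replicate 2 and 1.25 against replicate 3, and the median fall was -1.91 and -0.97.

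**Figure D3:**
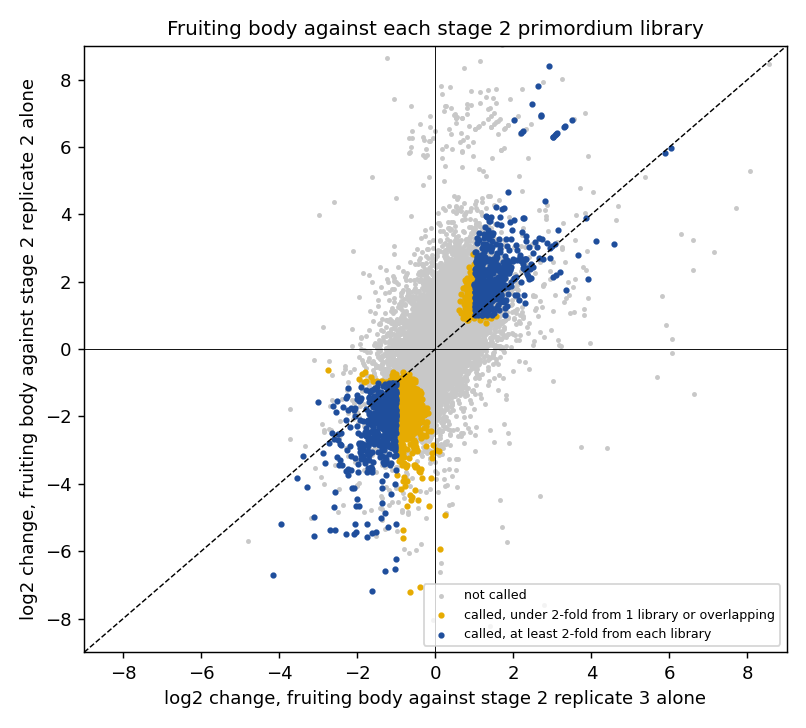
Log2 change of the fruiting body against stage 2 replicate 3 alone (horizontal) and replicate 2 alone (vertical), 1 point per gene tested; 1 uncalled gene lies outside the axes. The 945 genes in blue were called and at least 2-fold from each primordium, those in yellow were called but closer to or overlapping 1 of them, and the dashed line marks equal change.

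Under 3 other settings some genes were called whichever stage 2 library was left out. DESeq2, sample-weighted voom and edgeR over all 14 libraries held 124, 138 and 45 genes in this way, while the 10 other settings tried, among them unweighted voom and limma on the authors' log2 RPKM, held 0. Common to the 3 settings were 44 genes, with 41 lower in the fruiting body and 3 higher. The fit over 14 libraries takes in vegetative mycelium, read on another flow cell, whose replicates varied far less than those of the fruiting stages. The main fit leaves mycelium out for that reason and held 0. All 44 were among the 1682 calls, and 43 were at least 2-fold from each primordium. Both counts are largely built in, because the 44 had to be called in the same data with either stage 2 library left out. The genes named from this group were chosen after their values were seen, and the files give them no name beyond a locus tag.

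Among the 41 falls, SCHCODRAFT_02620260 was at 927 and 174 CPM in stage 2 replicates 2 and 3 and at 19.3, 20.9 and 18.9 CPM in the 3 fruiting bodies. The fruiting bodies were close to each other and far below both primordia, and the young fruiting bodies lay between, at 78.5, 49.6 and 144 CPM. Its log2 change was -4.80 ± 0.66 (SE; adjusted p = 0.0184), with -5.56 and -3.11 against replicates 2 and 3. That adjusted p is the smallest in the comparison but is shared by many genes, so it does not rank them. SCHCODRAFT_02638893 stood at 902 and 441 CPM in the primordia and at 71.1, 76.5 and 100.4 CPM in the fruiting bodies (-3.02 ± 0.40, adjusted p = 0.0184). For SCHCODRAFT_02639851 the primordia nearly coincided, at 109 and 104 CPM, above fruiting bodies at 25.2, 17.0 and 15.2 CPM (-2.47 ± 0.41, adjusted p = 0.0184). SCHCODRAFT_02619692 likewise had 515 and 462 CPM in the primordia and 134, 105 and 117 CPM in the fruiting bodies, with both primordia high and all fruiting bodies low (-2.04 ± 0.29, adjusted p = 0.0184).

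The 3 rises of that group were modest in level. SCHCODRAFT_02557283 was at 13.3 and 27.4 CPM in the primordia and at 66.6, 92.5 and 73.5 CPM in the fruiting bodies (log2 change 1.92 ± 0.33, adjusted p = 0.0184). The young fruiting bodies were already at 56.0, 68.9 and 58.2 CPM, above both primordia, and stage 1 primordia had 52.9 to 67.9 CPM, so stage 2 was the low point. SCHCODRAFT_02697881 went from 6.09 and 10.0 CPM to 36.7, 44 and 37.1 CPM (2.27 ± 0.35, adjusted p = 0.0184), with young fruiting bodies at 21.1, 11.3 and 13.3 CPM, between the groups. SCHCODRAFT_02506878 went from 1.58 and 1.5 CPM to 6.27, 9.53 and 6.73 CPM (2.28 ± 0.39, adjusted p = 0.0184).

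The largest rises were ranked by the smaller of the 2 changes, among the 945 genes with at least 10 CPM in the higher stage. SCHCODRAFT_02683629 rose from 22.1 and 19.3 CPM to 149, 156 and 128 CPM, with tight groups far apart (log2 change 2.80 ± 0.61, adjusted p = 0.0254; 2.70 and 2.93 against replicates 2 and 3). It stood at 11 to 49.6 CPM in the young fruiting bodies and 3.44 to 7.29 CPM in stage 1 primordia, so the fruiting body was above all 8 other fruiting libraries. SCHCODRAFT_02624962 rose from 4.96 and 4.80 CPM to 27.7, 24.2 and 43.6 CPM (2.71 ± 0.70, adjusted p = 0.0363), again above all 8. SCHCODRAFT_02627376 had the largest such rise but an uneven one, from 6.88 and 2.58 CPM to 8.26 CPM in fruiting body replicate 1 and 78.6 and 92.7 CPM in replicates 2 and 3 (3.69 ± 1.00, adjusted p = 0.0425; 4.21 without replicate 1 and 3.24 without replicate 3). Its change was 4.57 without stage 2 replicate 2.

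In the remaining pair the primordium was a low point. SCHCODRAFT_01145136 was at 3.61 and 3.84 CPM in the primordia and at 52.9, 17.0 and 19.9 CPM in the fruiting bodies (3.00 ± 0.77, adjusted p = 0.0358; 2.31 without fruiting body replicate 1), and stage 1 primordia had 13 to 60.1 CPM. SCHCODRAFT_02086159 was at 7.56 and 9.36 CPM against 20.0, 90.3 and 90.8 CPM (2.98 ± 0.84, adjusted p = 0.0463), with stage 1 primordia at 28.1 to 95.2 CPM. For it 13.6% of the placed reads had more than 1 placement and its span overlaps another model, so its level is less certain.

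The 5 largest falls were in transcripts that stood above 100 CPM in both primordia and could still be detected in every fruiting body. Model_2629707, an ID with no matched locus tag, was among the most abundant transcripts of stage 2 at 20583 and 8973 CPM. It stood at 528, 538 and 618 CPM in the fruiting bodies, which hardly differed from each other (-4.72 ± 0.88, adjusted p = 0.0187; -5.20 and -3.97 against replicates 2 and 3). SCHCODRAFT_02610878 fell from 1563 and 269 CPM to 36.1, 3.4 and 5.32 CPM (-5.93 ± 1.31, adjusted p = 0.0273), by -6.71 and -4.15 against replicates 2 and 3 and by -7.71 without fruiting body replicate 1. SCHCODRAFT_02640876 had even primordia, at 1616 and 1328 CPM, and uneven fruiting bodies, at 264, 51.1 and 24.6 CPM (-3.70 ± 1.01, adjusted p = 0.0432; -5.28 without fruiting body replicate 1).

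SCHCODRAFT_02322551 fell from 221 and 128 CPM to 20.8, 10.2 and 7.70 CPM (-3.75 ± 0.59, adjusted p = 0.0184), and is the only 1 of these 10 genes among the 44 held under 3 settings. It shares 9.42% of its placed reads with other models and overlaps a neighbour. SCHCODRAFT_02608315 fell from 330 and 393 CPM to 82.5, 17.7 and 10.3 CPM (-3.29 ± 0.89, adjusted p = 0.0427; -4.69 without fruiting body replicate 1), and it too overlaps a neighbour. Reads were not separated by strand, so overlapping pairs cannot be told apart. In all 5 falls both stage 2 libraries lay above the 9 other fruiting libraries, those of stage 1 included.

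**Figure D4:**
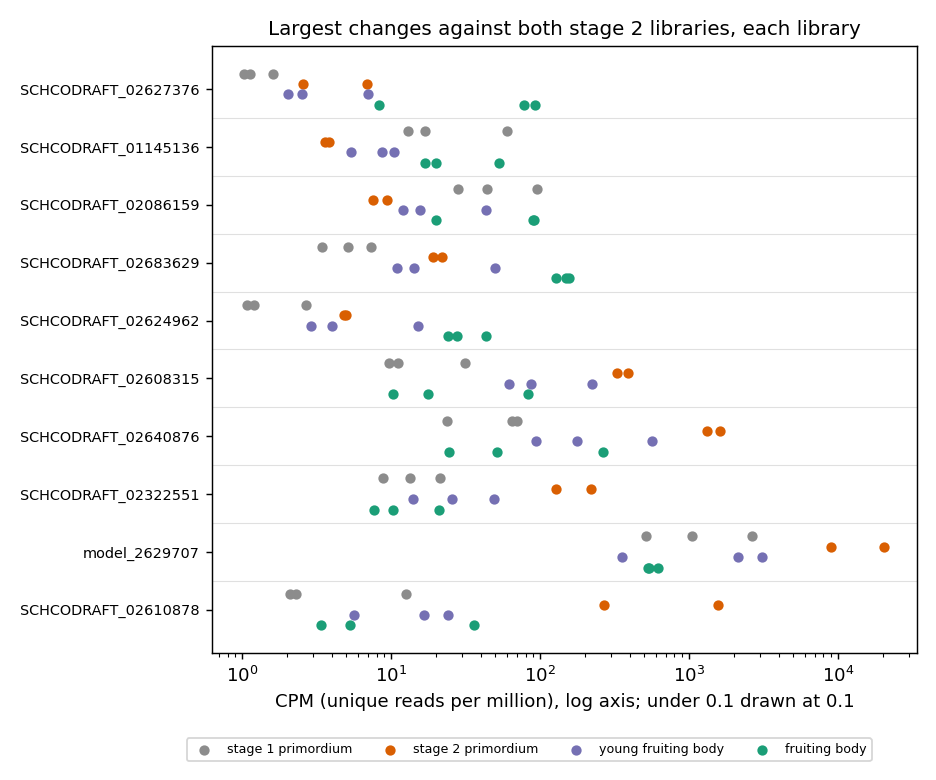
CPM in each of the 11 fruiting libraries (log axis) for the 5 largest rises and 5 largest falls against both stage 2 libraries, 1 row per gene and 1 point per library, coloured by stage. In the 5 falls the stage 2 points lie above every other point; in SCHCODRAFT_01145136 and SCHCODRAFT_02086159 they lie below every other point.

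The called genes were also viewed beside the stage 1 and young fruiting body libraries. In 704 of the 1070 falls (65.8%) both stage 2 libraries exceeded all 9 others, and in 227 (21.2%) the fruiting bodies lay below all 8 others. In rises the primordium was lowest of all in 303 of 612 (49.5%) and the fruiting body highest of all in 260 (42.5%). Over all genes tested the shares were 9.18% and 3.73% for the 2 patterns among falls and 9.10% and 7.46% among rises. Genes were called on their stage 2 and fruiting body values, so higher shares among calls are built in. The young fruiting body lay nearer the fruiting body than the primordium on the log2 scale in 877 falls and 331 rises, and nearer the primordium in 193 and 281. At the median gene its level lay 72.4% of the way to the fruiting body among falls and 52.3% among rises. These figures also depend on how the genes were chosen and have no value over all genes beside them. They do not time the changes.

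Switching between absence and presence was rare at this depth. Only SCHCODRAFT_0107470 had at most 3 reads in each stage 2 library and at least 1 CPM in each fruiting body (1.76, 1.59 and 1.67 CPM), and 0 models showed the opposite. Median transcript lengths were 1387 bases for rises, 1388 bases for falls and 1327 bases for all genes. Models shorter than 500 bases made up 5.07% of rises, 7.85% of falls and 8.02% of all.

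Some called genes lay next to each other. Of the called protein-coding genes with a locus tag, 226 of 1024 falls (22.1%) and 73 of 601 rises (12.1%) had a directly adjacent gene called in the same direction. A gene can have a neighbour on either side, so these shares are not to be read against the share of all genes called, and they were not tested. Of the matched models 22.6% overlap another model, and reads were not separated by strand. The part of such overlaps in these shares was not tested either. Each direction had 1 run of 4 adjacent genes and none longer. The run of rises, SCHCODRAFT_02626700, SCHCODRAFT_02296633, SCHCODRAFT_085177 and SCHCODRAFT_02579170, had log2 changes of 1.47, 1.25, 1.51 and 2.67, and all 4 were at least 2-fold from each primordium. In the run of falls, SCHCODRAFT_02626339, SCHCODRAFT_02293324, SCHCODRAFT_02701433 and SCHCODRAFT_02701434, the changes were -1.92, -3.04, -2.15 and -3.57. Only SCHCODRAFT_02293324 was at least 2-fold from each. SCHCODRAFT_02701434 was at 71.5 CPM in stage 2 replicate 2 but at 4.98 CPM in replicate 3, within the fruiting bodies' 1.64 to 5.70 CPM.

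The calls also include genes for which the stage 2 libraries gave very different changes. SCHCODRAFT_02497214, the fall with the widest gap between the stage 2 libraries, was at 104 CPM in replicate 2 and 1.02 CPM in replicate 3, and at 1.76, 0.219 and 0.260 CPM in the fruiting bodies. Its log2 change of -6.08 ± 1.60 (adjusted p = 0.0405) was -7.07 against replicate 2 and -0.39 against replicate 3, whose value lies among those of the fruiting bodies. SCHCODRAFT_02660915, its counterpart among rises, had 0 and 0.300 CPM in the primordia and 4.51, 1.42 and 0.818 CPM in the fruiting bodies (adjusted p = 0.0378). All 3 fruiting bodies were above both primordia, but the change was 2.52 without fruiting body replicate 1 against 3.56 with it, 8.41 against stage 2 replicate 2, where it had no reads, and 2.91 against replicate 3.

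Among the 20 genes with a symbol, 19 were tested and 1 was called (WC1), a share below the 11.9% of all genes. WC1 encodes the blue light receptor of the White collar complex. Its level was 346 and 173 CPM in stage 2 replicates 2 and 3 and 102, 119 and 124 CPM in the fruiting bodies. Every fruiting body lay below both primordia, by a wide margin only for replicate 2. WC1 fell by 1.17 on the log2 scale (SE 0.31, adjusted p = 0.0357), with -1.59 against replicate 2 and -0.56 against replicate 3. The call ended without any 1 of stage 2 replicate 2, the 3 fruiting bodies, stage 1 replicates 1 and 2 and young fruiting body replicate 3 (adjusted p between 0.0520 and 0.408). With no scaling factor the change was -0.44 (adjusted p = 0.233), and the authors' TPM for WC1 were 62.7 and 57.9 in the primordia against 39.2, 53.2 and 54.3.

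None of the other 5 regulators was called, and for each of them the groups overlapped. The zinc finger gene c2h2, needed for primordia to form, was at 15.5 and 51.8 CPM in the primordia and at 39.2, 91.7 and 133 CPM in the fruiting bodies. Fruiting body replicate 1 lay within the range of stage 2, and the log2 change of 1.38 ± 0.64 did not pass (adjusted p = 0.155). Against replicate 2 alone it was 2.51 and passed (adjusted p = 0.0482), and against replicate 3 alone it was 0.80. Fst3 and Fst4, zinc finger regulators of fruiting, were at 181 and 327 CPM against 100, 333 and 306 CPM, and at 120 and 208 CPM against 104, 214 and 203 CPM. In both, fruiting body replicate 1 was lowest and the others were close to stage 2 replicate 3, giving changes of -0.04 ± 0.48 and 0.08 ± 0.35. Gat1, a GATA factor, and Bri1, with an ARID/BRIGHT domain, changed by -0.26 ± 0.29 and -0.28 ± 0.31. Gat1 ran from 34.5 to 58.5 CPM over the 5 libraries and Bri1 from 22.8 to 52.2 CPM. With no scaling factor the changes of Gat1, Bri1 and Fst3 were 0.32, 0.37 and 0.48, so no direction is given for them. The median change of the 6 regulators was -0.15, against 0.10 over all genes.

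Of the 7 hydrophobins with a symbol 0 were called (edgeR; 3 had an unadjusted p below 0.05, DESeq2 called SC6, and voom, sample-weighted voom and limma on log2 RPKM called Hyd5), with a median log2 change of 1.29. In 3 of the 7 the fruiting bodies lay above both primordia and in 2 below, where 25.8% and 20.7% of all genes tested did so. SC3, which coats aerial hyphae, was at 33.1 and 130 CPM in the primordia and at 3.17, 15.4 and 10.3 CPM in the fruiting bodies. The groups did not overlap, yet the change of -3.08 ± 1.35 did not pass (adjusted p = 0.140). It was -1.78 against replicate 2 and -3.72 against replicate 3, and young fruiting bodies, at 698, 9.45 and 1133 CPM, spanned both. SC3 passed without young fruiting body replicate 2 (adjusted p = 0.0353). Hyd5 was at 224 and 53.9 CPM in the primordia and at 31.4, 4.05 and 4.43 CPM in the fruiting bodies, all below (-3.38 ± 1.04, adjusted p = 0.0587). Hyd5 overlaps another model. In edgeR it was called over all 14 libraries, without stage 2 replicate 3 and without fruiting body replicate 1 (-3.35, -4.07 and -5.03; adjusted p = 0.0255, 0.0344 and 0.0302). The 3 limma fits gave adjusted p between 0.0400 and 0.0496, and its change was -2.00 without stage 2 replicate 2.

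SC6, known from fruiting dikaryons, was at 2.14 and 1.86 CPM in the primordia and at 2.98, 83.0 and 138 CPM in the fruiting bodies. Only replicates 2 and 3 of the fruiting body were far above stage 2, and the change of 5.23 ± 1.75 did not pass (adjusted p = 0.0722). SC6 passed in 4 of 24 alternatives. In edgeR these were without fruiting body replicate 1 (5.79, adjusted p = 0.0367), without young fruiting body replicate 1 (0.0490) and over all 14 libraries (0.0369). DESeq2 also called it (adjusted p = 0.00417). The 3 limma fits gave adjusted p between 0.115 and 0.239, and edgeR without fruiting body replicates 2 and 3 gave 0.127 and 0.132. Its symbol was matched through an older locus tag and is less certain. Hyd8 was at 54.6 and 17.5 CPM against 255, 163 and 172 CPM, with every fruiting body well above both primordia (2.45 ± 1.16, adjusted p = 0.165; 1.85 and 3.52 against replicates 2 and 3). Hyd3 had 0 reads in both primordia and 175 in the 3 fruiting bodies, at 0.268, 1.64 and 5.13 CPM. That made it at least 20.0-fold higher, taking 3 reads over the stage 2 group as the floor, but it was not called (adjusted p = 0.275). Replicate 3 held 138 of the reads, and without it Hyd3 was at least 8.13-fold higher. Hyd4, at 61.8 and 23.9 CPM against 68.3, 53.1 and 193 CPM, overlapped between stages (1.29 ± 1.16), and Hyd9 had 0 reads in all 5 libraries.

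**Figure D5:**
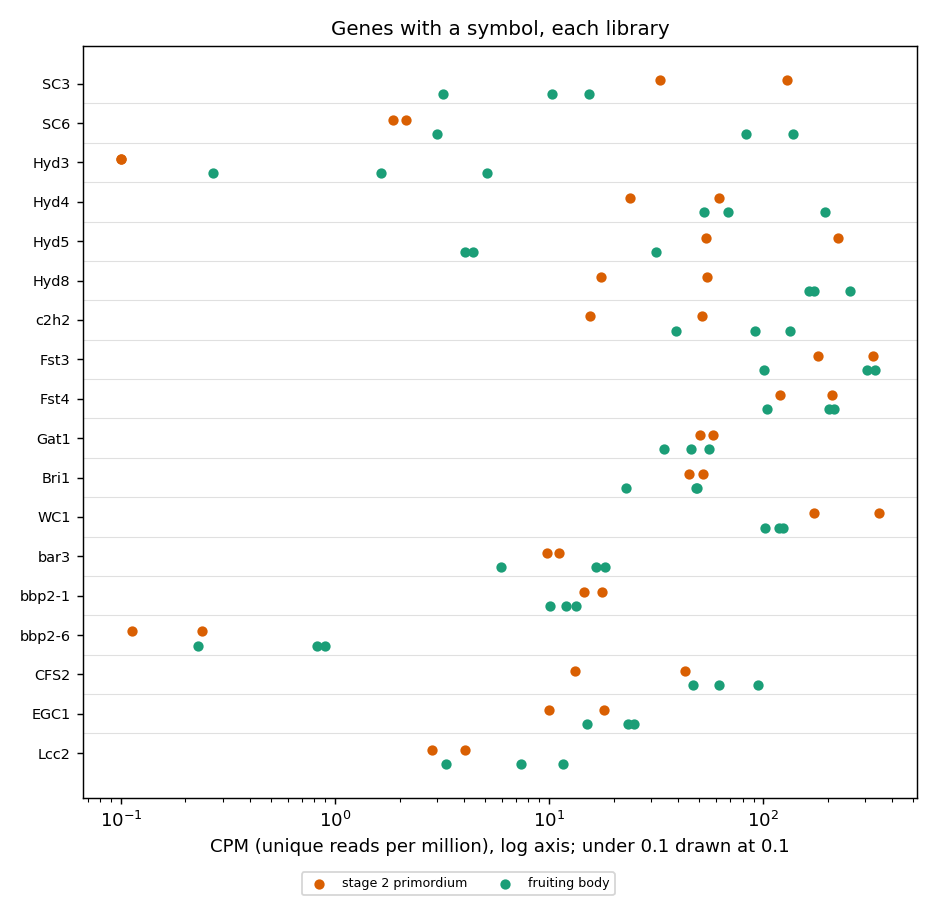
CPM in each stage 2 primordium and fruiting body library (log axis, 1 point per library) for 18 genes with a symbol; the 0 CPM of Hyd3 in stage 2 is drawn at 0.1. Both orange points lie to the right of all green ones in SC3, Hyd5, WC1 and bbp2-1, and all green points lie to the right in SC6, Hyd3, Hyd8 and CFS2; the rest overlap.

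No gene of the mating type B locus was called. The pheromone receptor gene bar3 was at 11.2 and 9.78 CPM in the primordia and at 5.97, 16.5 and 18.3 CPM in the fruiting bodies, which spanned the primordia (0.38 ± 0.40). The pheromone precursor gene bbp2-1 was at 17.6 and 14.5 CPM against 13.3, 11.9 and 10.1 CPM, all lower but by little (-0.45 ± 0.29, adjusted p = 0.295; 0.19 with no scaling factor). Precursor gene bbp2-6 was under 1 CPM in all 5 libraries, and bbp2 had too few reads to be tested. Neither were the other genes called. CFS2 was at 13.2 and 43.0 CPM against 94.1, 62.1 and 46.9 CPM, with fruiting bodies above but replicate 3 only just (1.26 ± 0.68, adjusted p = 0.211; 2.36 and 0.68 against replicates 2 and 3). The laccase gene Lcc2 was at 2.82 and 4.02 CPM against 3.29, 11.6 and 7.36 CPM (1.09 ± 0.66), and EGC1 at 9.93 and 17.9 CPM against 15, 25.0 and 23.3 CPM (0.59 ± 0.32), both overlapping.

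Of the 27 models at 10000 CPM or more in any of the 5 libraries, 15 reached that level in stage 2 replicate 2 alone. The TMM factor of that library, 0.565, raises its CPM. Choosing models by this level favours a fall, so their counts are a description only. A lower fitted level in the fruiting body was found in 22, against 6405 of the 14132 genes tested, and 4 of the 27 fell, against 7.57% of all. Among the 4, SCHCODRAFT_02732293 fell from 12001 and 5002 CPM to 1290, 1502 and 1645 CPM (-2.52 ± 0.54, adjusted p = 0.0241). Another, SCHCODRAFT_02631869, fell from 12678 and 5440 CPM to 1669, 1366 and 1256 CPM (-2.66 ± 0.64, adjusted p = 0.0289). In both the fruiting bodies were close to each other and below either primordium. SCHCODRAFT_02629146 was at 20866 CPM in stage 2 replicate 2 but 1702 CPM in replicate 3, and at 1143, 408 and 371 CPM in the fruiting bodies (-4.14 ± 1.00, adjusted p = 0.0315; -1.39 against replicate 3 alone). SCHCODRAFT_02628901, at 52370 and 25754 CPM in the primordia, was at 6297, 27289 and 13900 CPM in the fruiting bodies and was not called (-1.30 ± 0.88).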

How the data were processed

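Per-library files were deposited by the authors with raw read counts (unique and total gene reads) for 16319 transcript models and a TPM column. A second deposited table gives log2 RPKM. R 3.0.2, limma 3.18.13 and edgeR 3.4.2 are listed, with no role, in the submitters' processing notes, and the aligner is not given in the sources used here. Model IDs were matched to Schco3 locus tags of the same number, or after an offset of -287 for IDs from 2000000 up (16024 matched, 11 of them by an older tag). The reference gives 20 of them symbols and no products, so lists by protein pattern or product were not applied.

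The test was a robust quasi-likelihood fit of stage to unique reads of the 11 fruiting libraries (R 4.3.3, edgeR 4.0.16), after filterByExpr and TMM. Vegetative mycelium was left out because it came from another flow cell and its replicates varied far less (biological coefficient of variation 0.0919, against 0.286 to 0.459 in fruiting stages). The SE is the change over the square root of F. In simulated libraries of 14014 genes, 100 genes were changed 4-fold and 100 were changed 2-fold, with all libraries of a stage drawn alike. Of these 40% and 0% were recovered, and 1 of 41 calls was a gene that had not been changed. The data gave 1682 calls and had unlike stage 2 libraries, so these shares do not describe recovery or false calls in this comparison. DESeq2 1.42.0 and limma 3.58.1 (voom) were alternatives. The members, lists and tests were chosen with earlier results of these data known. Named were all genes with a symbol and, in each direction, the gene with the largest gap between stage 2 libraries. The planned rule for the 5 largest changes required calls without each stage 2 library and found no gene, so the 2-fold rule replaced it after the values were seen.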

Additional observations from a re-analysis of the deposited data

How the results depend on the processing

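The count of 1682 calls was 2990 with DESeq2, 3474 over all 14 libraries, 663 with sample-weighted voom and 0 on the 2 stages alone; leaving out 1 library gave 0 to 3444, with 839, 988 and 1069 without stage 1 replicates 1 and 2 and young fruiting body replicate 3. Calls of at least 4-fold, 376 in all, were 615 with no scaling factor, 227 with weighted voom, 0 on the 2 stages alone and 0 to 1395 without 1 library. Genes held against each stage 2 library by adjusted p, 0 as reported, were 124 with DESeq2, 138 with weighted voom and 45 over 14 libraries. The 945 genes at least 2-fold from each were 1626 with no scaling factor (1481 higher), 457 with weighted voom and 0 on the 2 stages alone. Only called genes enter this count, so its 0 repeats the 0 calls on the 2 stages alone and says nothing of the sizes of change. With the authors' log2 RPKM 51.2% of 1497 calls were higher, with weighted voom 18.7%, and over 14 libraries 48.0%.

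With a replicate block edgeR called 0 genes, so 0 could be counted as at least 4-fold or as at least 2-fold from each library. In that fit 4044 genes had an unadjusted p below 0.05. DESeq2, voom and weighted voom were not run with a block. Same-numbered libraries did not deviate together: 2 of 15 pairs correlated above 0.1 (-0.26 to 0.24), and 2 of 11 libraries were closest to their own number.

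Uncalled directions that turned were 0.37 for Bri1, 0.32 for Gat1, 0.48 for Fst3 and 0.19 for bbp2-1 with no scaling factor; Fst3 also with weighted voom (0.38) and the replicate block (0.14). Without 1 library Bri1 ran from -0.45 to 0.0039, Fst3 from -0.37 to 0.45 and Fst4 from -0.23 to 0.53. DESeq2 gave no adjusted p for Hyd5 and SCHCODRAFT_02610878. The causes were not tested.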

Other observations

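Of the models with no matched locus tag 57 of the 276 tested were called (20.7%, where 11.9% of all genes were), 46 of them lower in the fruiting body, where 7.57% of all genes were called lower. The difference was not tested. Model_2629707 is 1 of these.

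Some models can only be seen through reads with several placements, which the tests on unique reads leave out. In 52 models at most 3 unique reads were counted in each of the 5 libraries, but at least 100 multiply placed reads in 1 or more. SCHCODRAFT_02543942 had 161 and 347 such reads in stage 2 replicates 2 and 3 and 915, 505 and 704 in the fruiting bodies, and SCHCODRAFT_02544008 had 141 and 365 against 923, 483 and 678. These are raw reads, not scaled to library size. In both models the fruiting bodies had more than either primordium. Their counts were nearly equal in each library, so they cannot be read as 2 separate observations. They are examples, and others of the 52 lacked this pattern. SCHCODRAFT_02487235, for instance, had 1090 and 940 such reads in stage 2 replicates 2 and 3 and 537, 712 and 1038 in the fruiting bodies.

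Fruiting body replicate 1 stood apart for a set of very abundant transcripts. SCHCODRAFT_02699522 was at 16918 CPM there, 3633 and 3572 CPM in replicates 2 and 3 and 1918 and 2302 CPM in the primordia. SCHCODRAFT_02675809 was at 13087 CPM against 3666 and 4454 CPM in the other fruiting bodies and 1231 and 1334 CPM in the primordia. Neither was called (adjusted p = 0.213 and 0.144).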
